A study of Mus musculus with 21 samples.

Results

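The gene described here is Tspo, 1 of the 45706 genes in the expected count table of this mouse RNA-seq study and 1 of the 23815 with at least 5 counts over all libraries. It was chosen by its strong and steady rise from sham to injured microglia in these same data. Its levels after injury and over time, and their spread, are therefore given as a description, without a test. Only the comparisons between genotypes and between cell types are tested. These tests use a spread estimated over all 7 groups, which a choice by steadiness may have lowered. Microglia (CD45low CD11b+) were sorted from the brains of wildtype sham controls and from injured wildtype (WT) and Fgg γ390–396A animals, 1 d or 7 d post-CCI. CCI, controlled cortical impact, is a model of traumatic brain injury (TBI). The time of collection of the sham mice is not in the labels. Infiltrating myeloid cells (CD45hi CD11b+) were sorted from both genotypes at 1 d. Each of the 7 groups had 3 libraries, and each library held 40000 microglia or 25000 myeloid cells from 2 brains, pooled at random. The mice were adult males on a C57BL/6 background. In Fgg γ390–396A mice the fibrinogen gamma chain is altered at the site recognised by the integrin CD11b/CD18, and coagulation is preserved. The change is in the germline, so every cell carries it. No sham group of that genotype and no uninjured myeloid cells were sorted, so in Fgg γ390–396A microglia a difference from sham holds both genotype and injury, which cannot be told apart. All differences from sham share the same 3 sham libraries.

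TSPO is the translocator protein of the outer mitochondrial membrane. It binds cholesterol, porphyrins and a peptide family called endozepines, and it is best known in the brain as the target of positron emission tomography tracers for neuroinflammation, because the signal rises where microglia and macrophages are activated. Resting brain holds little of it, and astrocytes and endothelium express it too. A role in carrying cholesterol to steroid synthesis was long ascribed to it and has been questioned in knockout mice.

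Tspo (ENSMUSG00000041736) lies on the plus strand at GRCm38 chr15:83563592-83574203, and GENCODE M21 gives it 2 protein-coding transcripts. The longer one has exons at 83563592 to 83563644, 83571385 to 83571595, 83572200 to 83572338 and 83573770 to 83574203. The shorter one begins at 83563875, ends at 83572325 and shares the second exon. The first 196 bp of the gene, which hold the first exon of the longer transcript, overlap the start of Mcat, a gene of mitochondrial fatty acid synthesis on the opposite strand. The library kit is not stated to keep strand. Mcat had 2830 counts over all libraries against 65635 for Tspo, and its level was lowest where that of Tspo was highest, at 1.31 ± 0.126 CPM in WT myeloid cells (SD, n = 3) against 6.22 ± 1.63 CPM in sham microglia. The gene on the other side, Ttll12, starts 887 bp away, had 2259 counts and did not pass the test against sham in either genotype or time (log2 difference of 1.17 in WT mice at 1 d, adjusted p = 0.075, edgeR's quasi-likelihood test). The closest relative of Tspo, Tspo2, had 2 counts in all libraries together.

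Total counts per library ranged from 18896957 to 51875767, of which ribosomal RNA genes took 43.0% to 58.5%, and Tspo had between 314 and 9950 counts. Levels are given as CPM, counts scaled to a common library total, with TMM factors that further scale libraries to each other. Since gene length is divided out of the deposited values, CPM can be compared between genes as levels per length. Factors ran from 0.735 to 1.55 and were highest in the sham libraries, at 1.39 to 1.55. On this scale, 3 counts correspond to 0.0448 to 0.158 CPM, for counting error only. The 11 microglial markers summed to 12342 to 13980 CPM in sham microglia and to 452 to 1146 CPM in the myeloid libraries. The 16 markers of infiltrating neutrophils and monocytes summed to 3645 to 13829 CPM in the myeloid libraries and to 115 to 913 CPM in microglia, with no marker of either list at 0 in any group. The third sham library held 858 CPM of them, against 166 and 255 CPM in the other two.

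Sham microglia held little Tspo and injured microglia several times more, with the highest levels in infiltrating myeloid cells. The 3 sham libraries held 11.8, 11.9 and 12.6 CPM. In WT mice at 1 d the microglia libraries held 69.1, 77.4 and 102.3 CPM. At 7 d they held 47.1, 35.8 and 47.8 CPM. Every injured library was thus above every sham library, and every 7 d library was below every 1 d library. In Fgg γ390–396A mice the microglia libraries held 57.6, 75.6 and 95.3 CPM at 1 d. At 7 d they held 32.9, 27.4 and 29.5 CPM. Infiltrating myeloid cells held 240.7, 273.0 and 211.1 CPM in WT mice and 246.9, 228.7 and 227.4 CPM in Fgg γ390–396A mice, above all microglia libraries of either time.

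**Figure D1:**
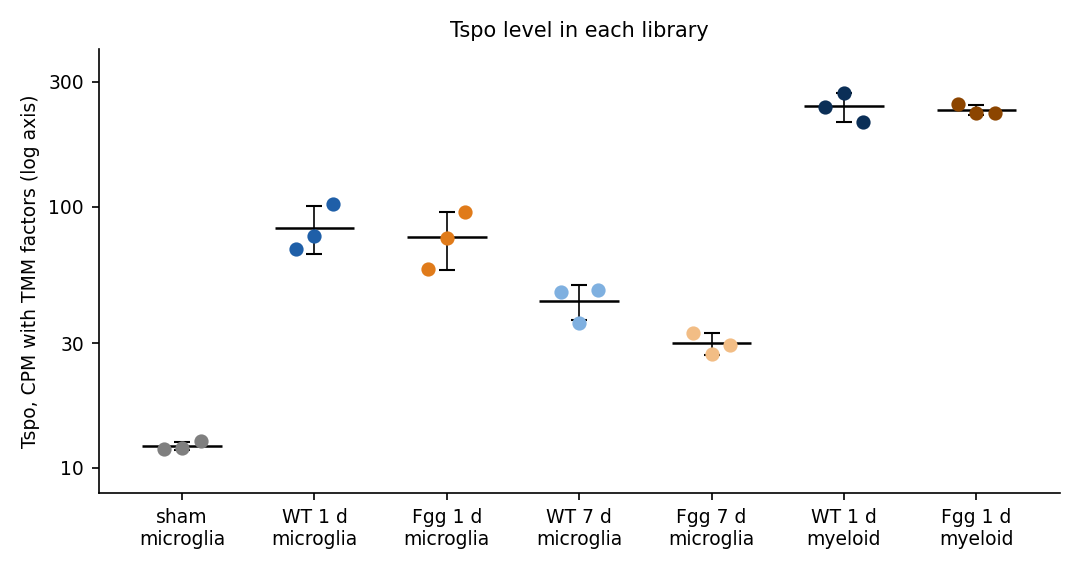
Tspo in CPM with TMM factors (log axis) for each library in the 7 groups. Points are libraries, lines the group mean and error bars 1 SD (n = 3). The sham points sit near 12 CPM, the injured microglia between 27.4 and 102.3 CPM and the myeloid cells above 211 CPM.

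Ordered by their means, the groups were sham microglia at 12.1 ± 0.445 CPM, Fgg γ390–396A microglia at 7 d at 29.9 ± 2.79 CPM and WT microglia at 7 d at 43.6 ± 6.71 CPM. Fgg γ390–396A microglia at 1 d followed with 76.2 ± 18.9 CPM, WT microglia at 1 d with 82.9 ± 17.3 CPM, Fgg γ390–396A myeloid cells with 234.3 ± 10.9 CPM and WT myeloid cells with 241.6 ± 31.0 CPM (mean ± SD, n = 3 each). The 2 genotypes overlapped in microglia at 1 d and in myeloid cells. Against sham, the fitted log2 difference in WT mice was 2.77 (SE 0.20), or 6.84-fold, at 1 d and 1.85 (SE 0.19), or 3.60-fold, at 7 d. In Fgg γ390–396A mice it was 2.65 (SE 0.20) at 1 d and 1.31 (SE 0.19) at 7 d, or 6.28-fold and 2.47-fold. The log2 difference of 7 d from 1 d was -0.93 (SE 0.19) in WT mice and -1.35 (SE 0.19) in Fgg γ390–396A mice. With total counts in place of TMM factors, the 4 differences from sham were 2.01 and 1.29 in WT and 2.19 and 0.98 in Fgg γ390–396A mice. In sorted bulk samples, more RNA of a gene per cell and more cells of a type that expresses it cannot be told apart. By level per length, Tspo ranked 4199th of 15726 protein-coding genes in sham microglia, 704th in WT microglia at 1 d, 1183rd at 7 d and 350th in WT myeloid cells.

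The sham libraries differed little in this gene. Tspo was picked for a strong and steady rise, so a low spread of these libraries may follow from that choice. Their coefficient of variation was 3.68%, against a median of 16.2% over the 1443 protein-coding genes of similar level. At 1 d it was 20.9% in WT and 24.8% in Fgg γ390–396A microglia, against 17.1% and 16.3% for genes of similar level. In both 1 d microglia groups, the library with the least Tspo held the most of Ccr2, a receptor of infiltrating monocytes. That library held 27.8 CPM of Ccr2 in WT mice, against 1.99 and 5.27 CPM in the other two, and 27.7 CPM in Fgg γ390–396A mice, against 1.41 and 2.65 CPM. All 16 infiltrating markers together summed to 898, 178 and 575 CPM in the WT libraries 1 to 3 and to 487, 137 and 115 CPM in those of Fgg γ390–396A mice, where Tspo was 69.1, 77.4 and 102.3 CPM and 57.6, 75.6 and 95.3 CPM. With the mean log2 level of the infiltrating markers as a covariate among microglia only, the Tspo differences from sham were 2.79 and 1.86 in WT mice at 1 d and 7 d and 2.64 and 1.33 in Fgg γ390–396A mice.

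Markers of other kinds differed between sham and injured microglia as well. The microglial markers had a mean sum of 12967 CPM in sham microglia, 5346 CPM in WT and 6624 CPM in Fgg γ390–396A microglia at 1 d, and 8762 and 9386 CPM at 7 d. Astrocyte markers, 8 genes with none at 0, summed to 49.4 to 58.7 CPM in sham, 13.9 to 24.9 CPM at 1 d and 36.0 to 43.0 CPM at 7 d. Markers of endothelium and pericytes, 10 genes, summed to 5.02 to 19.2 CPM in microglia and 10.6 to 22.7 CPM in myeloid cells, with Cldn5 and Slco1a4 at 0 in WT microglia at 1 d and Itm2a at 0 in Fgg γ390–396A myeloid cells. The astrocyte sum was thus highest where Tspo was lowest, while single astrocyte markers went both ways. Of the 8, 1 passed as higher than sham in WT microglia at each time, and 2 as lower at 1 d. In Fgg γ390–396A microglia at 1 d 1 passed as higher and 3 as lower. Of all genes, 10.7% rose and 5.97% fell in WT microglia at 1 d, and 2.42% and 0.265% at 7 d. Here and below, shares of all genes are over the 23815 tested, of which 7803 had a mean of at least 5 CPM. Genes of few counts seldom pass, and shares over the 7803 were not computed. In Fgg γ390–396A microglia at 1 d 7.6% rose and 2.19% fell. Markers of neurons and oligodendrocytes, 9 genes, summed to 26.80 to 27.98 CPM in sham, 25.5 to 48.2 CPM in WT and 23.1 to 32.0 CPM in Fgg γ390–396A microglia at 1 d. At 7 d they summed to 46.3 to 74.4 CPM in WT and 37.5 to 49.2 CPM in Fgg γ390–396A microglia, above all sham libraries, and 2 of the 9 passed as higher than sham in WT microglia at each time. In myeloid cells they summed to 24.4 to 44.1 CPM, with Tubb3 and Mog at 0 in Fgg γ390–396A cells. Genes of the response to tissue dissociation, 16 in number, summed to 303 to 1670 CPM in microglia and 1988 to 5169 CPM in myeloid cells, with none at 0, and the part of these other genes in the Tspo levels was not tested.

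The cell type comparison asked whether cells sorted as microglia or as infiltrating myeloid cells held more Tspo in the injured brain. The CD45hi CD11b+ cells also held markers of border-associated macrophages. These summed to 1196 to 2101 CPM in WT myeloid cells and 127 to 225 CPM in WT microglia at 1 d. Their part in the Tspo difference was not tested. At 1 d, myeloid cells held more than microglia in both genotypes, with every myeloid library above every microglia library. The difference was 1.54 in WT mice (SE 0.19, 95% confidence interval 1.15 to 1.94, adjusted p = 1.0e-05) and 1.62 in Fgg γ390–396A mice (SE 0.19, 1.23 to 2.02, adjusted p = 4.6e-06), or 2.91-fold and 3.08-fold. Of all genes, 15.7% passed in WT mice (7.56% higher, 8.11% lower) and 21.4% in Fgg γ390–396A mice (9.33% higher, 12.1% lower), and 33.8% and 37.1% had a larger absolute difference than Tspo. Under the 9 alternatives the call held in both, with adjusted p up to 0.0015 and 0.0018. Leaving out single libraries gave 1.43 to 1.77 and 1.46 to 1.82. Both cell types may come from the same pools of brains, and the test took their libraries as independent.

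The genotype comparison asked whether Tspo after TBI depends on the binding of fibrin to CD11b/CD18. No genotype difference passed an adjusted p of 0.1. In microglia at 1 d the difference of Fgg γ390–396A from WT mice was -0.12 (95% confidence interval -0.51 to 0.26, adjusted p = 1.0), and in myeloid cells it was -0.04 (-0.43 to 0.34, adjusted p = 1.0). Differences of up to 0.26 higher and 0.51 lower on the log2 scale in microglia at 1 d thus remained within the interval. At 7 d the Fgg γ390–396A libraries held 27.4 to 32.9 CPM and the WT libraries 35.8 to 47.8 CPM. The highest Fgg γ390–396A library was thus close to the lowest WT library. The difference there was -0.54 (SE 0.19, -0.93 to -0.15), or 0.687-fold. With edgeR's quasi-likelihood test its unadjusted p was 0.0089, and its adjusted p was 1.0 in a comparison where 0.0378% of all genes passed. The alternatives gave -0.55 to -0.31, with adjusted p from 0.29 to 1.0. The infiltrating markers summed to 279 to 913 CPM in WT and 405 to 480 CPM in Fgg γ390–396A microglia at 7 d, and the microglial markers to 8311 to 9218 and 8893 to 10232 CPM. With the infiltrating markers as a covariate the difference was -0.53. The mean of the 3 genotype differences was -0.24 (-0.46 to -0.01, adjusted p = 0.52), with an unadjusted p of 0.039 in edgeR's quasi-likelihood test and of 0.069 in an exact permutation test, two-sided, over the 8000 ways to exchange genotypes within cell type and time.

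**Figure D2:**
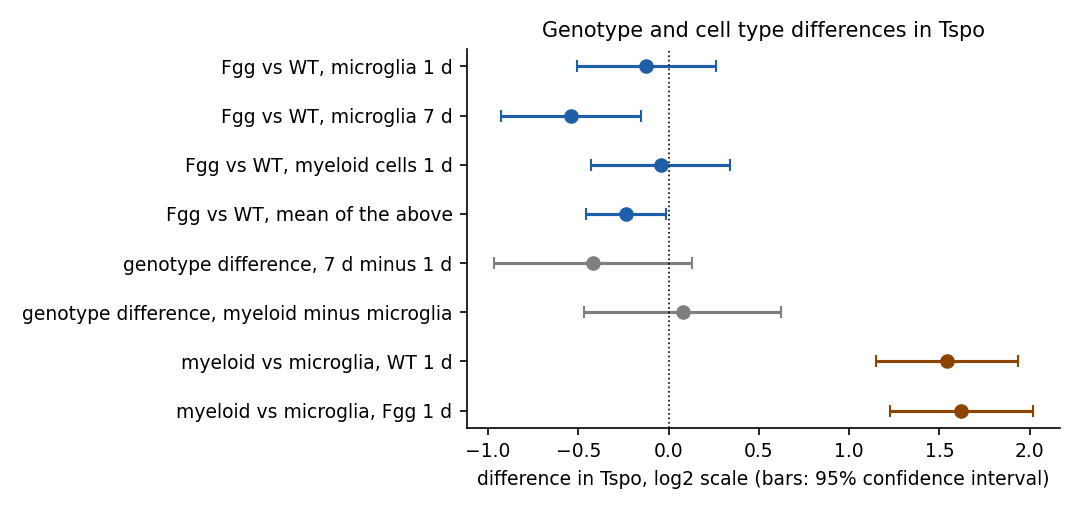
Differences in Tspo on the log2 scale with 95% confidence intervals, for the genotype differences, their interactions with time and cell type, and the difference between myeloid cells and microglia. For the genotype differences, points below 0 mean a lower level in Fgg γ390–396A than in WT mice. For the interactions they mean a lower genotype difference at 7 d than at 1 d, or in myeloid cells than in microglia. For the cell types, points above 0 mean a higher level in myeloid cells. The intervals of both cell type differences lie above 1.1, and that of the genotype difference at 7 d lies between -0.93 and -0.15.

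Whether the genotype difference itself changed with time or cell type was tested as an interaction. The difference at 7 d minus that at 1 d was -0.42 (-0.97 to 0.13, adjusted p = 1.0), and the difference in myeloid cells minus that in microglia at 1 d was 0.08 (-0.47 to 0.62, adjusted p = 1.0). The lower value at 7 d is therefore not shown to differ from that at 1 d.

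The endozepine side of the system was measured through 8 genes, of which 6 passed the count minimum. In WT microglia at 1 d 2 of them rose, where 10.7% of all genes rose and 5.97% fell, and in Fgg γ390–396A microglia 1 rose, where 7.6% rose and 2.19% fell. None passed at 7 d in edgeR, while in WT microglia 1 passed as higher with DESeq2 and 1 as lower with total counts. At 7 d 2.42% of all genes rose and 0.265% fell in WT microglia and 0.831% rose and 0.0546% fell in Fgg γ390–396A microglia. Dbi, which encodes diazepam binding inhibitor, the precursor of the endozepines and a carrier of acyl-CoA, held 41.8, 47.7 and 46.5 CPM in sham microglia. It held 110, 128 and 131 CPM in WT microglia at 1 d, with no overlap. Dbi rose by 1.44 on the log2 scale (SE 0.18, adjusted p = 9.5e-06, edgeR's quasi-likelihood test). In Fgg γ390–396A microglia at 1 d it rose by 1.33 (SE 0.18, adjusted p = 5.0e-05). At 7 d its differences from sham were 0.48 (adjusted p = 0.22) and 0.28 (adjusted p = 0.74), neither past the threshold of 0.05. Myeloid cells held 315, 211 and 210 CPM of Dbi in WT mice, which was higher than in microglia by 1.00 (SE 0.17, adjusted p = 0.00044). Acbd5, a tether between peroxisomes and the endoplasmic reticulum with the same acyl-CoA binding fold, rose in WT microglia at 1 d by 0.91 (adjusted p = 0.0039), a call lost with total counts, where the difference was 0.12. The other members tested did not pass in microglia. Among them Acbd3, a Golgi protein reported to bind TSPO, held 20.4 ± 1.79 CPM in sham and 19.4 ± 2.92 CPM in WT microglia at 1 d, and Tspoap1, named for its binding to TSPO, held at most 0.47 CPM on average in any group. Acbd7 had 0 counts in all libraries.

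Of 8 mitochondrial genes whose products are described beside TSPO, such as the VDAC channels and the adenine nucleotide carriers, 5 rose at 1 d in each genotype, where 10.7% of all genes rose in WT and 7.6% in Fgg γ390–396A microglia. None passed at 7 d in edgeR, and in WT microglia 1 passed as lower with total counts. Vdac1, the main channel of the outer membrane, held 27.3, 33.6 and 24.8 CPM in sham and 40.3, 69.9 and 73.9 CPM in WT microglia at 1 d, a difference of 1.11 (SE 0.20, adjusted p = 0.00059). Vdac3 rose too (adjusted p = 6.5e-05), and Slc25a5, an adenine nucleotide carrier of the inner membrane, rose by 1.47 (adjusted p = 6.3e-05). Vdac2 differed by 0.41 and did not pass. In WT mice the median of the list was 1.14 at 1 d and -0.04 at 7 d, against 0.16 and -0.01 over the 7803 genes with a mean of at least 5 CPM. None of these genes passed as higher in myeloid cells than in microglia, where 7.56% of all genes did in WT and 9.33% in Fgg γ390–396A mice. A difference above 0 was seen in 1 of 8 in WT and 4 in Fgg γ390–396A mice. Slc25a4, another nucleotide carrier, was lower there by 1.01 in WT (adjusted p = 0.0043) and 1.15 in Fgg γ390–396A mice (adjusted p = 0.0012), and Ppif, a regulator of the permeability transition, was lower by 1.02 in WT mice with an adjusted p of 0.048, a call lost in 6 of 9 alternatives.

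Other proteins of the outer membrane show how Tspo stood within its own compartment. Of 30 genes, 13 rose in WT and 10 in Fgg γ390–396A microglia at 1 d, against 10.7% and 7.6% of all genes. None passed at 7 d in edgeR, where 2.42% and 0.831% of all genes rose, and in WT microglia 5 passed as lower with total counts. The highest values were those of Tomm40, the pore of the import channel, at 1.69 (SE 0.27, adjusted p = 0.00013), and Cisd1, an iron-sulfur protein, at 1.64 (adjusted p = 8.1e-05). Tspo itself stood at 2.77. The median of the list in WT microglia was 0.67 at 1 d and -0.02 at 7 d. This direction at 1 d depended on the scaling. With total counts in place of TMM factors, the median of all genes tested moved to -0.67, that of the list to -0.10, and 2 of its genes rose while 8 fell. Relative to the 7803 expressed genes the list stood 0.51 higher with TMM factors and 0.49 higher without.

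A ratio within each library needs no scaling between libraries. Per 100 CPM of these 30 genes together, Tspo stood at 2.59 ± 0.0552 CPM in sham microglia (SD, n = 3), with libraries from 2.53 to 2.64. In WT microglia the ratio ran from 10.3 to 14.2 at 1 d and was 8.76 ± 1.24 at 7 d, and in Fgg γ390–396A microglia it was 11.6 ± 1.72 and 6.33 ± 0.268. In myeloid cells it was 29.9 ± 5.13 and 29.8 ± 2.35. Of the 30 genes, 15 were above Tspo in sham microglia, 1 in WT and 4 in Fgg γ390–396A microglia at 7 d, and none in the other groups. At 7 d the ratio ran from 7.38 to 9.77 in WT and from 6.04 to 6.56 in Fgg γ390–396A libraries.

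Heme and its precursors are bound by TSPO, and genes of heme handling passed in part. Of 19 genes, 6 rose in WT microglia at 1 d and 4 in Fgg γ390–396A microglia, with none lower, where 10.7% and 7.6% of all genes rose. The median in WT microglia was 0.49, against 0.16 over the 7803 expressed genes. Hmox1, the inducible enzyme of heme breakdown, held 12.1, 13.2 and 17.8 CPM in sham and 103, 78.7 and 169 CPM in WT microglia at 1 d, an increase of 3.02 (SE 0.30, adjusted p = 1.3e-06). In Fgg γ390–396A microglia it held 37.3, 37.4 and 65.6 CPM. At 7 d Hmox1 was the only gene of the list past the threshold in WT microglia, at 1.17 (adjusted p = 0.029), and the call was lost without either of sham libraries 1 and 2, without WT 7 d library 1 or 3, with limma-voom, with total counts and with the infiltrating markers as a covariate. Slc25a39 and Tmem14c, carriers of the inner membrane, rose at 1 d in both genotypes. Fech, which inserts the iron, differed by -0.07 and -0.02 at 1 d. In myeloid cells Hmox1 was higher than in microglia by 2.51 in WT mice (SE 0.29, adjusted p = 6.3e-06), at 502 to 793 CPM, and 3 genes of the list passed as higher and 2 as lower. The counts in Fgg γ390–396A mice were 5 and 4. Of all genes, 7.56% were higher and 8.11% lower in WT mice, and 9.33% and 12.1% in Fgg γ390–396A mice.

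Enzymes particular to steroid hormone synthesis were at or near the floor, while general carriers and electron donors were expressed. Of 18 genes, 4 did not reach the count minimum. Cyp11a1, the side-chain cleavage enzyme that starts steroid synthesis, had 4 counts in all libraries, and Cyp11b1, Cyp19a1 and Hsd3b1 had 0. Star, the carrier of cholesterol into mitochondria, held 1.45 ± 0.277 CPM in sham and 0.59 ± 0.0740 CPM in WT microglia at 1 d, which did not pass (adjusted p = 0.33). Of the 14 tested, 3 rose and 3 fell in WT microglia at 1 d, where 10.7% of all genes rose and 5.97% fell. Of the 3 that rose, Stard4, a cytosolic sterol carrier, and Hsd17b10, a mitochondrial dehydrogenase, lost their calls with total counts, and Stard4 also with the groups compared only and without sham library 1 or 2. Por, the electron donor of microsomal cytochromes, rose by 2.56 (SE 0.40, adjusted p = 0.00012). Stard5, a cytosolic carrier of sterols and bile acids, held 16.6, 11.4 and 11.5 CPM in sham and 2.33, 1.88 and 1.01 CPM in WT microglia at 1 d and fell by 2.92 (SE 0.36, adjusted p = 9.9e-06). Cyp27a1, a mitochondrial sterol hydroxylase, fell by 2.30 with an adjusted p of 0.041 that was lost when any of 9 libraries was left out.

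**Figure D3:**
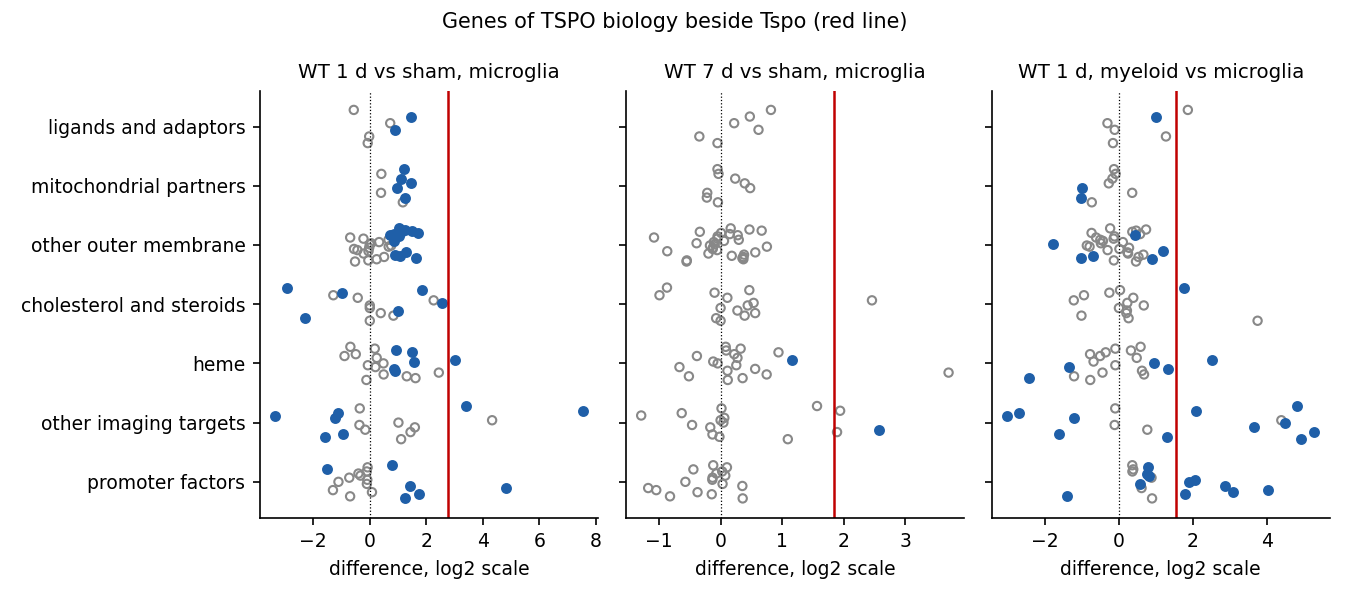
Log2 differences of the tested genes of the 7 lists, by list, in WT microglia at 1 d and 7 d against sham and in WT myeloid cells against microglia at 1 d. Filled points passed an adjusted p of 0.05, open points did not, and the red line is Tspo, at 2.77, 1.85 and 1.54. At 7 d only Hmox1 and Folr2 are filled.

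Over the 7 lists together, 109 of 115 genes were tested. In WT microglia at 1 d 36 of them rose and 9 fell, where 10.7% of all genes rose and 5.97% fell. Of those that rose, 4 had a larger log2 difference than Tspo, namely Ptgs2, Fosl1, Hmox1 and Trem1. The call of Trem1 was lost with total counts, limma-voom and the groups compared only, and without sham library 1 or 2 or WT 1 d library 1. With total counts in place of TMM factors 1 of the 6 endozepine genes rose and 1 fell, 1 of the 8 mitochondrial partners still rose, 2 of the 19 heme genes rose and 1 fell, and 2 of the 17 transcription factors rose and 9 fell. At 7 d only 2 of the 109 passed in WT microglia, both higher, where 2.42% of all genes rose and 0.265% fell. Of these 2, Folr2 had a larger difference than Tspo. The alternatives gave 2 to 13 there, with 13 under total counts and 6 under DESeq2, and leaving out single libraries gave 0 to 3, with 0 without sham library 1 or 2 or WT 7 d library 3 and 1 without WT 7 d library 1 or 2. In Fgg γ390–396A microglia 25 rose and 5 fell at 1 d, where 7.6% and 2.19% of all genes did. At 7 d none of the 109 passed there in edgeR, where 0.831% of all genes rose and 0.0546% fell. Up to 1 passed under the alternatives.

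Other proteins used as targets of neuroinflammation tracers went several ways. Of 15 genes, 2 rose and 5 fell in WT microglia at 1 d, and 1 rose and 3 fell in Fgg γ390–396A microglia. Of all genes, 10.7% rose and 5.97% fell in the first comparison and 7.6% and 2.19% in the second, so the number of targets that rose was near the share of all genes. Ptgs2, the inducible cyclooxygenase, held 0.0956, 0.152 and 0.302 CPM in sham and 27.6, 32.2 and 48.5 CPM in WT microglia at 1 d. It rose by 7.53 (SE 0.56, adjusted p = 8.3e-08) from 3, 4 and 12 counts in the sham libraries, and at 7 d it held 0.569 to 0.908 CPM, a difference of 1.94 that did not pass (adjusted p = 0.10). P2ry12, a purinergic receptor of resting microglia, held 4021, 3953 and 4021 CPM in sham. It held 659, 357 and 169 CPM in WT microglia at 1 d and 1612, 1595 and 1695 CPM at 7 d. It fell by 3.34 (SE 0.46, adjusted p = 3.3e-05) at 1 d, and its difference at 7 d was -1.29 (adjusted p = 0.15). P2rx7, the ATP-gated channel, fell by 1.23 (adjusted p = 0.0020), Csf1r, the receptor of colony stimulating factor 1, by 0.94 (adjusted p = 0.0010) and Ptgs1, the other cyclooxygenase, by 1.11 (adjusted p = 0.0073). At 7 d in WT microglia P2rx7 differed from sham by 0.06 and Csf1r by -0.13, and neither passed. Folr2, a folate receptor of macrophages, showed another time course. It held 0.446, 3.45 and 4.70 CPM in sham, 1.81 to 2.97 CPM in WT microglia at 1 d and 14.2, 18.3 and 19.0 CPM at 7 d, with a difference at 7 d of 2.58 (SE 0.61, adjusted p = 0.023). That call was lost without sham library 1 or 2, without WT 7 d library 2 or 3, with total counts and in a fit of the groups compared only. Border-associated macrophages express Folr2, and their 8 markers, none at 0 in any group, summed to 5.32 to 239 CPM in sham, 154 to 244 CPM in WT microglia at 7 d and 1196 to 2101 CPM in myeloid cells, and their part in this difference was not tested.

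Between cell types these targets also split. In WT mice at 1 d, 7 of 15 passed as higher and 4 as lower in myeloid cells than in microglia, where 7.56% and 8.11% of all genes did. In Fgg γ390–396A mice 9 and 4 passed, where 9.33% and 12.1% of all genes did. Ccr2 and Cxcr4, the receptors of monocyte chemokines and of CXCL12, were higher in WT mice by 4.91 (SE 0.95, adjusted p = 0.0011) and 5.29 (adjusted p = 0.00019), and Trem1, a receptor of neutrophils and monocytes, by 4.81 (adjusted p = 0.00048). Ptgs1 was lower by 2.70, P2ry12 by 3.03, Csf1r by 1.62 and P2rx7 by 1.22. Tspo and Ptgs2 were both high in injured microglia at 1 d and higher still in myeloid cells, and in sham microglia Tspo stood at 12.1 CPM on average and Ptgs2 at 0.302 CPM or less.

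**Figure D4:**
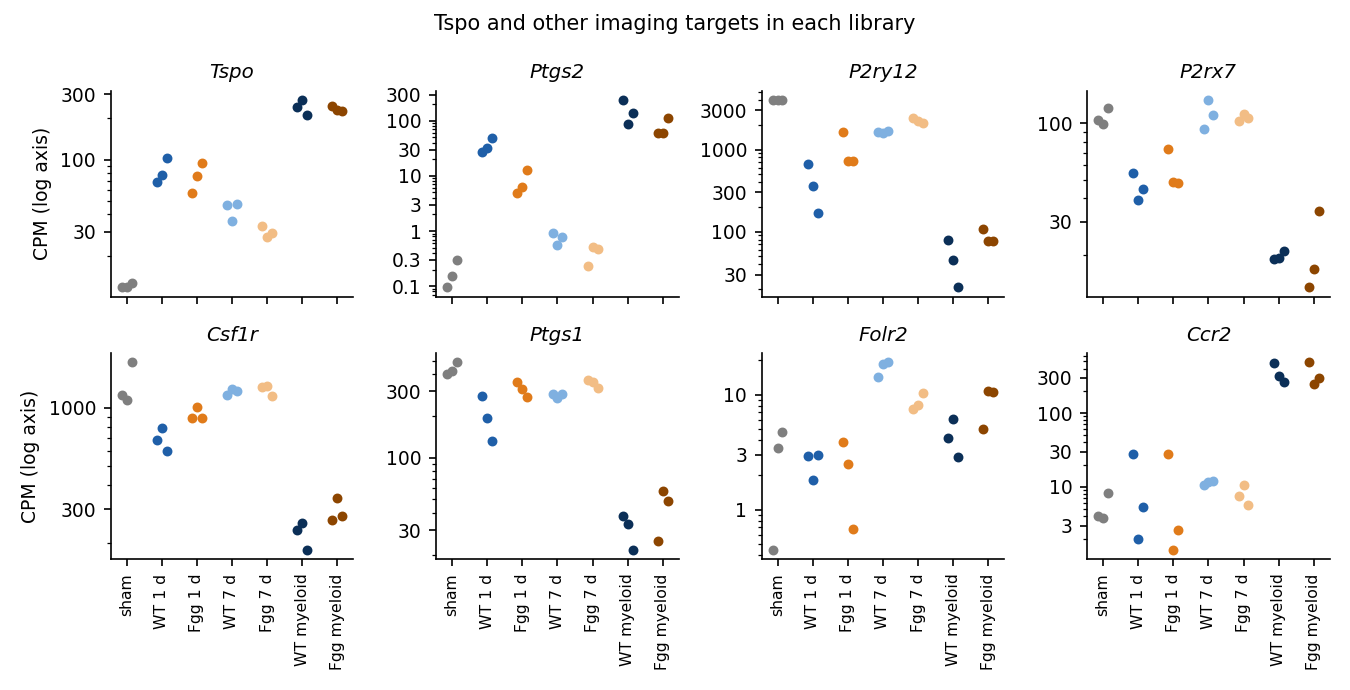
CPM (log axes) of Tspo and of other tracer targets in each library of the 7 groups, with a point for each library. Ptgs2 shares the order of Tspo from sham to myeloid cells, P2ry12, P2rx7, Csf1r and Ptgs1 are lowest in myeloid cells, and Folr2 is highest in WT microglia at 7 d.

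Transcription factors with sites described in Tspo promoters, 17 genes of the AP-1, SP, ETS, STAT and NRF2 families, were measured too. In WT microglia at 1 d 5 rose and 1 fell, where 10.7% of all genes rose and 5.97% fell, and in Fgg γ390–396A microglia 3 rose and 1 fell, where 7.6% and 2.19% did. None passed at 7 d in edgeR, and in WT microglia 2 passed as lower with total counts and 1 with the infiltrating markers as a covariate. Ets2 rose by 1.74 in WT (adjusted p = 0.00069) and by 1.07 in Fgg γ390–396A microglia (adjusted p = 0.038, lost in 3 of 10 alternatives). Fosl1, an AP-1 subunit, rose by 4.81 in WT microglia at 1 d (adjusted p = 0.00024) from 0.0759 to 0.159 CPM in the sham libraries to 2.33, 4.16 and 4.84 CPM. Stat3 rose by 0.80 (adjusted p = 0.017), and this direction turned with total counts, to -0.01. Sp4 fell by 1.52 (adjusted p = 0.0054). Spi1, the ETS factor that sets myeloid identity, held 114, 125 and 137 CPM in sham and 105, 130 and 122 CPM in WT microglia at 1 d. In myeloid cells 10 of 17 were higher than in microglia in WT mice and 13 in the other genotype, with 1 lower in each. Of all genes, 7.56% and 9.33% were higher and 8.11% and 12.1% lower. Spi1 was among the higher ones, by 0.78 (adjusted p = 0.00059) and 1.05 (adjusted p = 2.4e-05, edgeR's quasi-likelihood test). Jun, Junb, Fos and Fosb, which were also higher there, are among the genes that respond to tissue dissociation.

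Among the listed genes, genotype differences were few in edgeR. In microglia at 1 d, where 0.0546% of all genes passed, only Ptgs2 did, lower in Fgg γ390–396A mice at 4.86, 6.42 and 12.5 CPM against 27.6, 32.2 and 48.5 CPM in WT mice. The difference was -2.20 (SE 0.40, adjusted p = 0.063), and the call was lost with total counts, in a fit of the groups compared only, and when either Fgg γ390–396A library 1 or 2 or WT library 2 or 3 at 1 d, or WT library 3 at 7 d, was left out. None passed at 7 d, with adjusted p of 1.0 for Dbi at -0.20 (SE 0.17). In myeloid cells, where 0.495% of all genes passed, Fundc1, a mitophagy receptor of the outer membrane, was higher by 0.99 (adjusted p = 0.097), a call lost when any of 17 libraries was left out. In the mean over cell types and times, where 0.197% passed, Ptgs2 was lower by 1.38 (adjusted p = 0.032), a call lost with limma-voom and without Fgg γ390–396A or WT microglia library 1 at 7 d. S1pr1, a sphingosine 1-phosphate receptor, was lower by 0.92 (adjusted p = 0.021). The alternatives called 1 to 7 listed genes in this mean, with 7 under DESeq2. Hmox1, at -1.32 in microglia at 1 d (SE 0.28, adjusted p = 0.21), did not pass.

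The genes most like Tspo in pattern were sought over the 21 libraries among 7802 genes with a mean of at least 5 CPM, by Pearson's r of log2 CPM. The 8 highest were Gpx1 (r = 0.98, Spearman's rho 0.96), Tpm4, Gpi1, Rps16, Rpl36al, Myl6, Snrpg and Emp3, all at 0.97 or above. Gpx1, a glutathione peroxidase, held 182, 220 and 199 CPM in sham, 597 to 675 CPM in WT microglia at 1 d, 363 to 492 CPM at 7 d and 1298 to 1589 CPM in WT myeloid cells. Tpm4, a tropomyosin of the actin cytoskeleton, held 15.4 CPM on average in sham and 353 to 440 CPM in WT myeloid cells, and its differences from sham in WT microglia were 3.53 at 1 d and 2.05 at 7 d. The 21 points fall into 7 groups and share their scaling factors, and high values were common. An r above 0.9 was reached by 499 genes, and only 2 of the 8 were among the 8 highest by Spearman's rho and 1 by group means. The lowest were Smad1 (r = -0.97), Dido1 and Rcsd1. Smad1, a mediator of bone morphogenetic protein signals, held 19.0 CPM on average in sham and 3.74 to 4.33 CPM in WT myeloid cells.

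**Figure D5:**
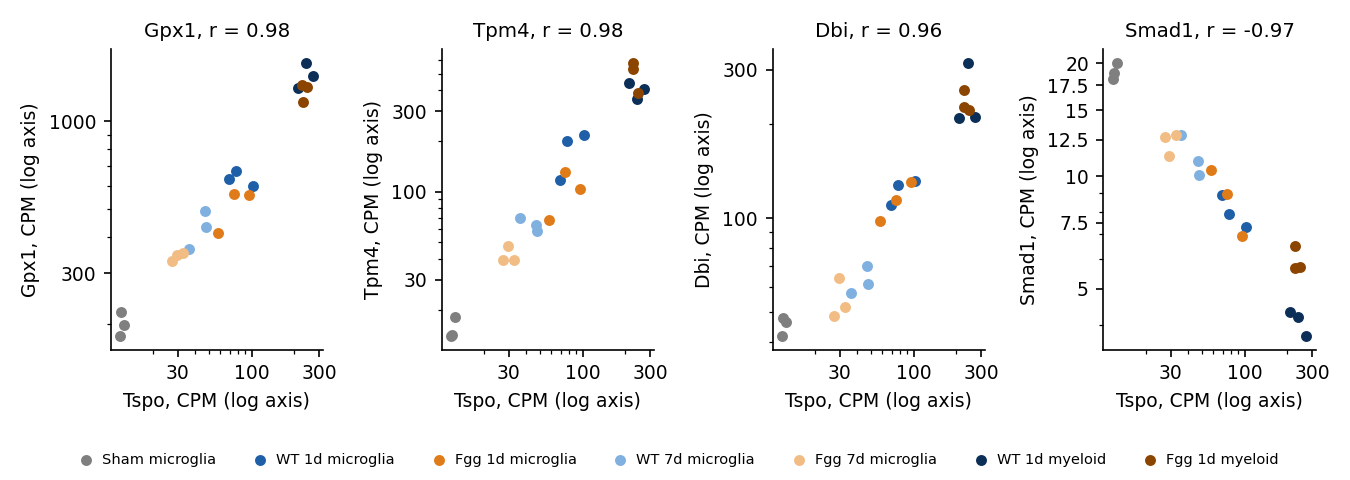
CPM of Gpx1, Tpm4, Dbi and Smad1 against CPM of Tspo (log axes), with a point for each of the 21 libraries, coloured by group, and Pearson's r of log2 CPM above each panel. Gpx1, Tpm4 and Dbi rise with Tspo from sham microglia to myeloid cells and Smad1 falls.

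Of the listed genes, Dbi was the most like Tspo (r = 0.96, 37th of 7802), followed by Hmox1 (r = 0.95), Tomm20 (r = 0.95) and Ptgs2 (r = 0.94). Within groups, after the group mean was taken from each library, the genes with the highest r were Pfdn1 (0.85), Bub3, Eif4a1, Rpl28 and Manf, and that of Gpx1 was 0.55. The median over all 7802 genes was 0.09 within groups and 0.18 over the libraries.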

How the data were processed

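RNA of sorted cells was amplified with the Ovation RNA-seq System V2 kit and sequenced by the authors. After trimming, transcripts were quantified by salmon, run through nf-core/rnaseq with the GRCm38 build. The authors deposited expected counts per gene, scaled so that gene length is divided out and not normalized between libraries. They were rounded to whole counts here. Of 45706 identifiers, 45143 matched GENCODE M21. Values per library, group and gene list were computed from 1 fit of all 21 libraries with R 4.3.3 and edgeR 4.0.16 (glmQLFit, then glmQLFTest, with TMM scaling, and p-values adjusted by Benjamini-Hochberg over 23815 genes with at least 5 counts). Thresholds were adjusted p of 0.05 for injury and cell type and 0.1 for genotype, with no bar on the fold. SE and 95% intervals came from the F statistic. Within a group, replicates were pools of different brains, and p-values measure the spread between pools. Brains were pooled by genotype and time, so microglia and myeloid libraries at 1 d may share brains. The main fit and the permutation test took them as independent. Tspo and the gene lists were chosen with earlier results of these data known. Named genes were Tspo, listed genes, its neighbours, and the 8 genes of highest and 3 of lowest r with it, plus 5 by r within groups. Alternatives were DESeq2 1.42.0, limma-voom (limma 3.58.1), other scalings and filters, the groups compared only, the replicate number as a block, infiltrating markers as a covariate, a bar of an absolute log2 difference above 1, and leaving out each library. The methods were also run on simulated data with a spread below that of these libraries, which does not measure their accuracy here. The main fit did not treat replicate numbers as pairs.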

Additional observations from a re-analysis of the deposited data

How the results depend on the processing

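The direction of the Tspo differences from sham and from 1 d to 7 d was kept under all alternatives, and the call between cell types too. With total counts in place of TMM factors, which moved the median of all genes by -0.67 and -0.47 in WT microglia at 1 d and 7 d and by -0.34 and -0.25 in Fgg γ390–396A microglia, the Tspo differences from sham were 2.01 and 1.29 in WT and 2.19 and 0.98 in Fgg γ390–396A mice. There the genotype difference in microglia at 1 d turned to 0.19 and its interaction with cell type to -0.27. The genotype difference in myeloid cells was 0.0059 with the groups compared only. Leaving out single libraries gave -0.32 to 0.047 for the first (above 0 without Fgg γ390–396A library 1 or WT library 3), -0.088 to 0.27 for the interaction and -0.13 to 0.11 for the last (highest without WT myeloid library 2). The cause was not tested.

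Counts of all genes past the threshold moved more. With DESeq2 there were 1305 in WT microglia at 7 d (640 in edgeR), 3564 and 591 in Fgg γ390–396A microglia at 1 d and 7 d (2333 and 211), and between genotypes 131 and 90 in microglia at 1 d and 7 d (13 and 9), 1102 in myeloid cells (118) and 532 in the mean (47). Limma-voom gave 41, 40, 226 and 103 for these 4, filterByExpr 205 and 80 for the last 2, and the groups compared only 8, 21 and 7 for the first 3, 109 in Fgg γ390–396A microglia at 7 d and 2486 between cell types in that genotype (5092). Total counts gave 1622 in WT microglia at 7 d, 107 in Fgg γ390–396A microglia at 7 d and 35 between genotypes in myeloid cells. The share of called genes that were higher then moved from 64.2% to 19.3% in WT microglia at 1 d, from 90.2% to 15.3% at 7 d, from 77.6% to 43.7% and from 93.8% to 68.2% in Fgg γ390–396A microglia, from 43.6% to 23.4% between cell types in that genotype, from 61.5% to 83.3% between genotypes in microglia at 1 d and from 53.2% to 72.5% in the mean genotype difference. With DESeq2 size factors it was 65.2% in Fgg γ390–396A microglia at 1 d. Leaving out single libraries gave 361 to 692 in WT microglia at 7 d (361, 413 and 417 without sham libraries 1 and 2 and WT library 3). In Fgg γ390–396A microglia at 1 d it gave 1452 to 2647, with 1452 and 1476 without 1 d libraries 2 and 3 of that genotype. At 7 d it gave 76 to 266 there. The count was 128 and 120 without 7 d libraries 2 and 3 of that genotype, and 84 and 76 without sham libraries 1 and 2. Between genotypes it gave 6 to 103 in microglia at 1 d (without WT library 3 and 1), 62 to 720 in myeloid cells and 28 to 151 in the mean. In the last 2, counts were 720 and 151 without Fgg γ390–396A myeloid library 3 and 366 and 96 without library 1. In the mean the count was 132 without WT microglia library 1 at 1 d, and 28 and 30 without Fgg γ390–396A libraries 2 and 3 at 7 d. In myeloid cells the count was 62 to 78 without any of Fgg γ390–396A library 3 at 7 d, library 2 at 1 d, sham library 1, WT microglia library 2 at 1 d, libraries 1 and 3 at 7 d, or WT myeloid library 3.

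Same-numbered libraries of the 2 genotypes correlated at 0.07 to 0.46 in microglia at 1 d, with a mean of 0.25 against -0.12 for other numbers. The values were 0.0098 to 0.10 at 7 d (mean 0.05 against -0.02) and -0.01 to 0.05 in myeloid cells (0.03 against -0.01). Between WT myeloid cells and microglia the means were 0.11 and -0.05. The labels name no batch, so whether same-numbered libraries were handled together cannot be told. Nor do they tell whether microglia and myeloid libraries of the same number came from the same brains. With the replicate block the count between genotypes in myeloid cells was 72, and no Tspo call changed. Depth limits genes near 3 counts, not Tspo.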
